A study of Mus musculus with 6 samples.

Results

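The subject of this report is the set of nuclear genes for subunits of respiratory complex I in BV2 cells with and without a knockdown of TonEBP. Members were taken by name, as every mouse symbol made of Nduf, one of the letters a, b, c, s or v, and a number, which leaves out the assembly factors named Ndufaf. This gave 37 of the 21899 genes in the count table, 36 of them through the symbol table directly and Ndufb1 through its RefSeq symbol. All 37 passed the filter on low counts, as did 11943 genes in all. Of the 37, 7 were core subunits and 29 were accessory subunits. Ndufa4 carries the name but is now assigned to complex IV, so it was counted in neither class.

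BV2 is an immortalized mouse microglial line. One group, sh-NC, carried a scrambled shRNA, and the other, sh-TonEBP, carried an shRNA against TonEBP, the osmotic stress transcription factor encoded by Nfat5. Both groups received their shRNA by lentivirus followed by puromycin selection, so both had been infected and selected, and neither was given another agent according to the labels. Each group had 3 libraries of poly(A) RNA. A single shRNA against TonEBP was used, and nothing states that the replicates were grown as separate cultures. The p-values therefore reflect how far the replicate libraries differed, which could be technical variation alone.

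Complex I, or NADH:ubiquinone oxidoreductase, is the entry point of electrons from NADH into the mitochondrial respiratory chain. It is shaped like an L. The matrix arm takes electrons from NADH at its tip, the N module, and passes them along iron-sulfur clusters to ubiquinone in the Q module, and the membrane arm pumps protons. The core subunits have counterparts in bacterial complex I and carry out this chemistry, while the accessory subunits surround them and serve in assembly and stability. The core of the membrane arm is encoded by mitochondrial DNA, so the core subunits with Nduf names all belong to the matrix arm. In microglia, the balance between this pathway and glycolysis is known to shift with activation.

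The sh-NC libraries held 15288505 to 15555269 counts and the sh-TonEBP libraries 13621188 to 16140042. The counts of Nfat5 were 9641, 11640 and 9652 in sh-NC and 3894, 4631 and 5257 in sh-TonEBP, a log2 fold change of -1.14 (SE 0.16, adjusted p = 0.0001593). The microglial label was at odds with the markers. Of 14 microglial markers, 10 stayed under 5 counts in every library, Itgam, Ptprc and Spi1 among them, and P2ry12 and C1qa were at 0 in all 6 libraries. The summed level of the 14 was 18.2 to 20.3 CPM in sh-NC and 17.2 to 18.2 CPM in sh-TonEBP, where CPM is the read count scaled to library size after TMM normalization. Within that sum Cd68 was called lower (log2 fold change -1.59) and Tmem119 higher (1.36). In contrast, 8 of 9 tested fibroblast markers were called higher in sh-TonEBP, against 26.3% of all genes tested. The sum of that list was 859 to 934 CPM in sh-NC and 2425 to 2808 CPM in sh-TonEBP, with Thy1 at 0 in every library. Of 2 tested epithelial markers Krt8 was higher, and that list summed to 618 to 752 CPM in sh-NC and 1209 to 1518 CPM in sh-TonEBP. The part of these differences in the results on complex I was not tested, and in such bulk RNA a change in the share of cells of one kind and a change in RNA per cell cannot be told apart.

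Complex I transcripts were higher in sh-TonEBP than in sh-NC cells. A gene was called where edgeR's quasi-likelihood test gave a Benjamini-Hochberg adjusted p under 0.05 over all 11943 genes tested. Of the 37 members, 29 were called higher, against 26.3% of all genes tested, and 0 were called lower, against 26.2% of all genes tested. At an unadjusted p under 0.05, 30 members were higher and none lower, against 3524 higher and 3535 lower of all 11943 genes tested. The other tool that was run, DESeq2, also called 0 members lower, against 26.2% of all genes. The median log2 fold change of the members was 0.98, and that of all genes tested was 0.00072. The 8 members that were not called were Ndufs1, Ndufa4, Ndufa6, Ndufa10, Ndufb2, Ndufb5, Ndufc2 and Ndufs4. The 3 sh-TonEBP libraries all lay above the 3 sh-NC libraries for the 29 called members, and the groups overlapped for the 8 others. Groups did not overlap in either direction for 62.7% of all genes tested.

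**Figure D1:**
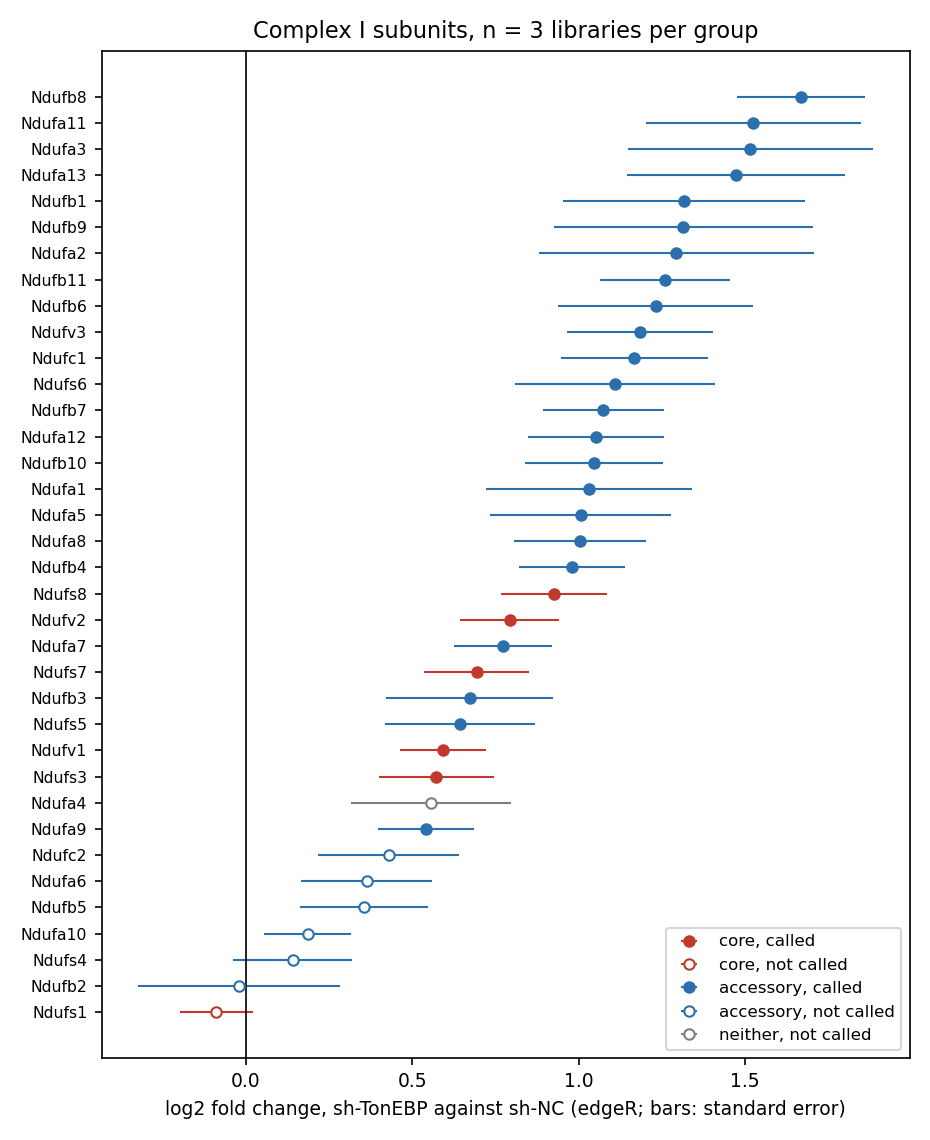
Log2 fold change of 36 of the 37 subunits (x axis, sh-TonEBP against sh-NC, edgeR, bars are 1 standard error, n = 3 libraries per group), sorted by size and coloured by class. Filled points were called and open points were not; values run from -0.09 for Ndufs1 to 1.67 for Ndufb8, and the core subunits drawn lie between -0.09 and 0.93.

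Among the 3 core subunits of the N module, 2 were called higher, against 26.3% of all genes tested. Ndufv1, which carries the flavin that accepts electrons from NADH, was at 85.7, 68.0 and 85.0 CPM in sh-NC and at 129.8, 125 and 105 CPM in sh-TonEBP. The groups did not overlap, and Ndufv1 rose by a log2 fold of 0.59 (SE 0.13, adjusted p = 0.002391). Ndufv2, the iron-sulfur protein beside it, was at 52.3, 47.7 and 47.6 CPM in sh-NC and at 72.9, 107 and 76.1 CPM in sh-TonEBP. The sh-NC libraries lay close together and the second sh-TonEBP library was highest, with a log2 fold change of 0.79 (SE 0.15, adjusted p = 0.0008821). Ndufs1 holds several of the iron-sulfur clusters of the chain, and its levels were 111, 120.4 and 113 CPM in sh-NC and 99.7, 117 and 107 CPM in sh-TonEBP. Those groups overlapped, and its log2 fold change of -0.09 (SE 0.11, adjusted p = 0.5103) was the lowest of the members. In the NADH-oxidizing tip, 2 subunits were thus above every control library in all sh-TonEBP libraries, and Ndufs1 was not.

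Core subunits of the Q module were higher as well. Ndufs7, a subunit of the ubiquinone site, was at 22.7, 21.2 and 16.4 CPM in sh-NC and at 37.3, 29.4 and 30.9 CPM in sh-TonEBP. The lowest sh-TonEBP library was above the highest control, and the log2 fold change was 0.69 (SE 0.16, adjusted p = 0.003058). Ndufs3, a structural subunit of the module, was at 45.5, 26.1 and 35.6 CPM in sh-NC and at 55.3, 54.1 and 49.9 CPM in sh-TonEBP. Its control libraries were spread more widely than its sh-TonEBP libraries, and its log2 fold change was 0.57 (SE 0.17, adjusted p = 0.01522). Ndufs8, a ferredoxin-like subunit, was at 42.2, 29.2 and 28.4 CPM in sh-NC and at 70.1, 60.2 and 59.1 CPM in sh-TonEBP. It had the largest change of the core subunits described here, a log2 fold of 0.93 (SE 0.16, adjusted p = 0.0005292).

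Of the 29 accessory subunits, 23 were called higher, against 26.3% of all genes tested. Their median log2 fold change was 1.05. A fold above 2 with an unadjusted p under 0.05, the cutoff the study used, was passed by 18 members, against 6.38% of all genes tested in the same direction. All 18 were accessory subunits, and 0 of the 7 core subunits passed it.

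The largest change was that of Ndufb8, an accessory subunit of the distal membrane arm whose protein is widely used in immunoblots to follow assembled complex I. Its levels were 24.7, 15.1 and 17.2 CPM in sh-NC and 59.8, 71.6 and 49.8 CPM in sh-TonEBP. The lowest sh-TonEBP library was above the highest control, and the log2 fold change was 1.67 (SE 0.19, adjusted p = 4.451e-05). Ndufb8 overlaps a second annotated gene, Gm20538, on the same strand, and 4.1% of its 50-base windows also occur there. The bases before its start are shown here because it led the members, with the letters of the SP1 motif (GGGCGG or CCGCCC) in capitals. They are the 150 bases upstream of the RefSeq start on the minus strand of GRCm38.p6, chr19:44555443-44555592, of which 59.3% are G or C.

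Ndufb8: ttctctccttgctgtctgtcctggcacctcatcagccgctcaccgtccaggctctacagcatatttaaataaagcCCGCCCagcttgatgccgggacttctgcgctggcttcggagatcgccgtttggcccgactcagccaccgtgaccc

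The next 5 by size of change also lie in the membrane arm. Ndufa13, also known as GRIM-19 and studied as a regulator of cell death, was at 42.0, 17.4 and 27.4 CPM in sh-NC and at 60.2, 116 and 64.9 CPM in sh-TonEBP. Its log2 fold change was 1.47 (SE 0.33, adjusted p = 0.004568). Ndufa3, a small subunit with a membrane-spanning helix, was at 16.5, 7.16 and 13.9 CPM in sh-NC and at 25.9, 57.0 and 24.6 CPM in sh-TonEBP, with a log2 fold change of 1.52 (SE 0.37, adjusted p = 0.006882). In both genes the second library was the lowest of the controls and the highest of the knockdown, and the groups did not overlap. Both lost their calls in the edgeR fit without the filter on low counts (adjusted p = 0.06657 for Ndufa13 and 0.08499 for Ndufa3). Both also lost them with the replicate number as a block (adjusted p = 0.1675 and 0.2052).

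Ndufb1, another small membrane subunit, was at 17.1, 10.6 and 13.9 CPM in sh-NC and at 21.6, 58.7 and 23.3 CPM in sh-TonEBP. The second sh-TonEBP library stood far above the other two, and the log2 fold change was 1.32 (SE 0.36, adjusted p = 0.01278). Ndufa11, which lies where complex I meets complex III in respiratory supercomplexes, had few reads, with counts of 63, 40 and 45 in sh-NC and 99, 226 and 99 in sh-TonEBP. Its log2 fold change was 1.52 (SE 0.32, adjusted p = 0.002334). Ndufb9, a subunit of the LYR family that binds the mitochondrial acyl carrier protein, had counts of 67, 54 and 60 in sh-NC and 104, 268 and 79 in sh-TonEBP. Again the second sh-TonEBP library was highest, and the log2 fold change was 1.31 (SE 0.39, adjusted p = 0.01761). The calls of Ndufb1 and Ndufb9 were each lost when any single sh-NC library was left out, while their log2 fold changes stayed at 1.16 to 1.49 and 1.26 to 1.39. Without the second sh-TonEBP library they were 0.70 and 0.65, and both were still called.

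A further 4 accessory subunits had the smallest adjusted p-values of the rest. Ndufb11, an X-linked membrane subunit, was at 34.6, 24.8 and 30.3 CPM in sh-NC and at 64.2, 94.6 and 55.8 CPM in sh-TonEBP (log2 fold change 1.26, SE 0.20, adjusted p = 0.0004131). Ndufb4, also of the membrane arm, was at 26.4, 21.7 and 21.7 CPM in sh-NC and at 43.4, 56.2 and 38.0 CPM in sh-TonEBP (log2 fold change 0.98, SE 0.16, adjusted p = 0.0003878). Ndufb4 shares 37.0% of its 50-base windows with other annotated genes, mostly the copy Ndufb4c, so its reads could be split between copies. Ndufb7, a subunit on the intermembrane space side, was at 33.0, 18.7 and 25.3 CPM in sh-NC and at 58.4, 56.1 and 47.7 CPM in sh-TonEBP (log2 fold change 1.07, SE 0.18, adjusted p = 0.0005438). Ndufa7, which sits in the matrix arm near the Q module, was at 78.1, 54.8 and 67.5 CPM in sh-NC and at 112, 131 and 100.02 CPM in sh-TonEBP (log2 fold change 0.77, SE 0.15, adjusted p = 0.0009986). None of these 4 genes had overlapping groups.

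Accessory subunits of both arms were called. Of 9 in the matrix arm, 7 were called higher with a median log2 fold change of 1.01. Of 20 in the membrane arm, 16 were called higher with a median of 1.06. Of all genes tested 26.3% were called higher, and of those with transcripts under 1000 bases 46.1%. In the matrix arm the called genes were Ndufa2 (log2 fold change 1.29), Ndufv3 (1.18), Ndufs6 (1.11), Ndufa12 (1.05), Ndufa5 (1.01), Ndufa7 and Ndufa9 (0.54). Ndufa2 has a thioredoxin-like fold, Ndufs6 binds zinc, and Ndufa9 lies at the junction of the arms near the ubiquinone site. In the membrane arm the remaining called genes were Ndufb6 (1.23), Ndufc1 (1.17), Ndufb10 (1.05), Ndufa1 (1.03), Ndufa8 (1.01), Ndufb3 (0.67) and Ndufs5 (0.64). The calls of Ndufa1, Ndufa2 and Ndufb3 were lost without the third sh-NC library and without the first or the second sh-TonEBP library, that of Ndufb3 also without the second sh-NC library, that of Ndufs5 without the first or the second sh-TonEBP library, and that of Ndufs6 without the first sh-TonEBP library. Sequence shared with other annotated genes was 28.5% of the 50-base windows in Ndufa13, 26.2% in Ndufa12, 34.1% in Ndufb6, 31.1% in Ndufs5 and, among the core subunits, 39.7% in Ndufs3, so their reads are uncertain where copies or overlaps were counted together.

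At the other end were subunits whose groups overlapped. Ndufb2, a small membrane subunit, had counts of 74, 58 and 46 in sh-NC and 36, 67 and 69 in sh-TonEBP, a log2 fold change of -0.02 (SE 0.30, adjusted p = 0.9625). Its lowest and its highest normalised levels, 2.26 and 4.97 CPM, were both in sh-TonEBP libraries. Ndufs4, a matrix arm subunit whose loss in mice is a model of Leigh syndrome, was at 46.1, 36.1 and 39.4 CPM in sh-NC and at 32.5, 55.4 and 46.3 CPM in sh-TonEBP, a log2 fold change of 0.14 (SE 0.18, adjusted p = 0.5236). Ndufa4 was at 131, 78.5 and 99.8 CPM in sh-NC and at 107, 204 and 145 CPM in sh-TonEBP, a log2 fold change of 0.56 (SE 0.24, adjusted p = 0.07483). Its lowest sh-TonEBP library lay below its highest control. The other uncalled members had log2 fold changes of 0.19 for Ndufa10, which has a nucleoside kinase fold, 0.36 for Ndufb5, 0.36 for Ndufa6, a LYR protein like Ndufb9, and 0.43 for Ndufc2. Without the first sh-TonEBP library Ndufa4, Ndufb5 and Ndufc2 were called higher, and Ndufa4 was also called without the first sh-NC library.

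Core and accessory subunits were set side by side without a test. The median log2 fold change of the core subunits was 0.59 and that of the accessory subunits 1.05, a core minus accessory difference of -0.45. Taken library by library as log2(CPM + 0.5) against the sh-NC mean, the core minus accessory difference was -0.28, 0.36 and -0.07 in sh-NC and -0.22, -0.69 and -0.31 in sh-TonEBP. The first sh-TonEBP library thus lay within the range of the controls, and the pooled SD of these values within groups was 0.29. Without both replicates numbered 2 the difference fell to -0.12. By contrast, the median over all members was 0.36, -0.36 and 0.02 for the control libraries and 0.75, 1.15 and 0.70 with the knockdown, and these did not overlap. The core medians were 0.66, 0.63 and 0.51 in sh-TonEBP and the accessory medians 0.88, 1.32 and 0.82. Core transcripts were also longer, with a median of 1312 bases against 704, so class and length run together here. After the length corrections given below, the core minus accessory difference was -0.30 with offsets and -0.27 with the trend taken from the fold changes.

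**Figure D2:**
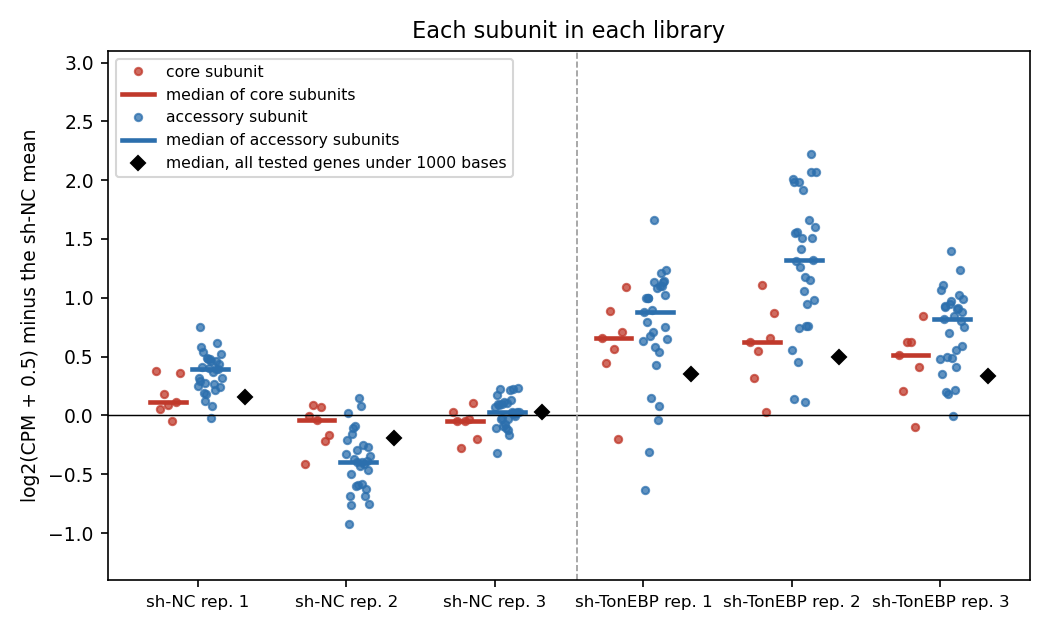
Level of each core (red) and accessory (blue) subunit in each of the 6 libraries, as log2(CPM + 0.5) minus the mean of the sh-NC libraries (y axis), with bars at the medians and black diamonds for the median of all tested genes with transcripts under 1000 bases. The second library is the lowest of sh-NC and the highest of sh-TonEBP for accessory subunits (medians -0.40 and 1.32), and the diamonds follow the same order at -0.19 and 0.50.

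The members moved together from library to library within a group. The first sh-NC library was the highest of its group for 35 of the 37 members, and the second was the lowest for 28. In sh-TonEBP the second library was the highest for 28 members and the third the lowest for 21. Short transcripts in general followed the same order. The median of all tested genes under 1000 bases was 0.16, -0.19 and 0.03 for the control libraries and 0.35, 0.50 and 0.34 with the knockdown. Without the second sh-TonEBP library 24 members and 22.7% of all genes were called higher. Without both replicates numbered 2, an alternative chosen after seeing the data, 23 members and 19.9% of all genes were called higher, and the members' median log2 fold change was 0.58. The calls lost in that last fit included those of Ndufb9, Ndufa1, Ndufb3, Ndufs5 and Ndufs3.

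Complex I transcripts are short, and short transcripts were more often higher in sh-TonEBP. The median length was 782 bases for the members, 1312 for the core and 704 for the accessory subunits, against 2720 for all genes tested, with lengths from an older annotation (GENCODE M21). Of all genes with transcripts under 1000 bases 46.1% were called higher, with a median log2 fold change of 0.44. The members of that length gave 22 of 26, with a median of 1.04. Of all genes between 1000 and 2000 bases 32.6% were called higher, with a median of 0.17, and the members gave 7 of 8, with a median of 0.58. Of genes of 2000 bases or more 21.8% were called higher. The 3 members of that length, Ndufs1, Ndufa10 and Ndufb2, were not called. Across genes, Spearman's rho between log2 fold change and length was -0.26 over 11929 genes, -0.36 over the 37 members and -0.18 over the 29 accessory subunits. Genes are not independent replicates, and these values are descriptions only. The length of Ndufb2 depends on which of its transcripts is taken, with a longest one of 4371 bases and a median of 2413.

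**Figure D3:**
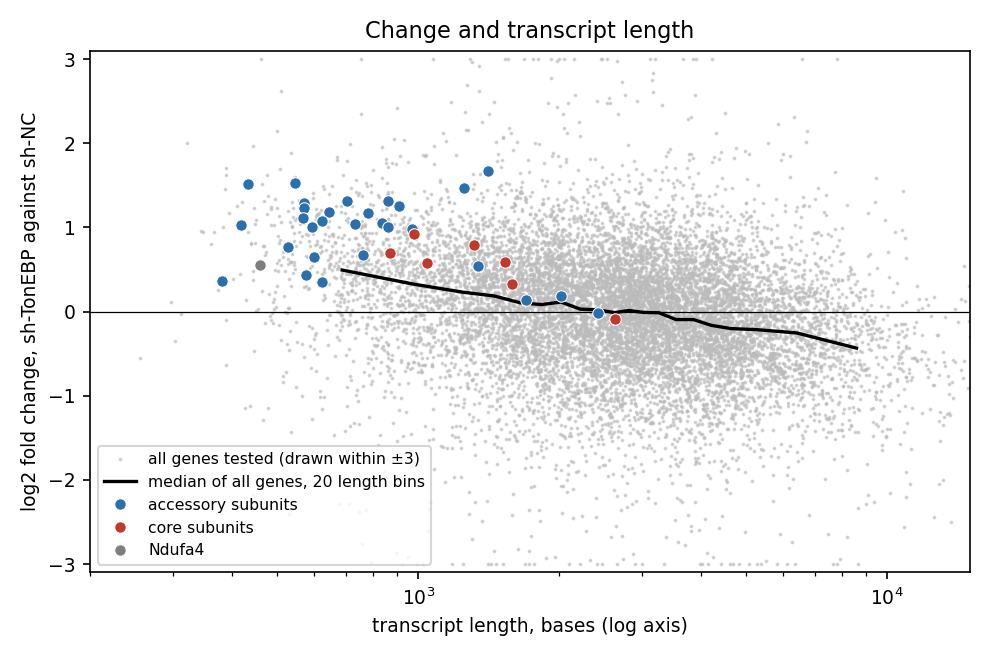
Log2 fold change (y axis, sh-TonEBP against sh-NC) against transcript length in bases (x axis, log scale) for all genes tested (grey) and the subunits (coloured), with a black line for the median of all genes in 20 bins of length. The line falls from short to long transcripts, and most subunits under 2000 bases lie above it.

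The fit was repeated with each library's smooth trend of level on length taken out as an offset, an alternative chosen after seeing the data. With these offsets 22 of the 37 members were called higher (59.5%), against 26.2% of all genes, and the median log2 fold change was 0.59. Ndufb8 still had the largest change, 1.50 (SE 0.16, adjusted p = 9.026e-06), followed by Ndufa13 at 1.27 (SE 0.28, adjusted p = 0.00363). This order depends on the annotated lengths, 1411 bases for Ndufb8, whose longest transcript has 2142, and 1251 for Ndufa13. The shorter Ndufa11 and Ndufa3, at 545 and 433 bases, fell from 1.52 each to 0.95 and 0.87. The core subunits called were Ndufv1, Ndufv2 and Ndufs8, at 0.45, 0.59 and 0.63, and Ndufs3 and Ndufs7 were no longer called. Ndufa1, Ndufa7, Ndufb3 and Ndufs5 also lost their calls. Ndufa6 was called lower in this fit, at -0.32 (SE 0.11, adjusted p = 0.02639), whereas it was at 0.36 without the offsets. The offsets take out any change that runs with length, whatever its source, so a trend of the libraries and a change in short transcripts in the cells cannot be told apart by them.

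**Figure D4:**
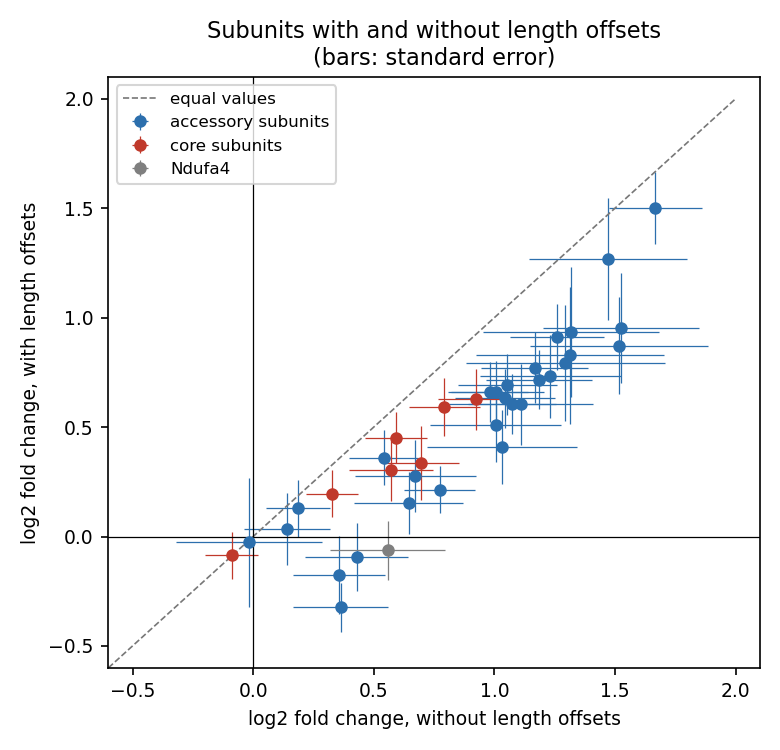
Log2 fold change of each subunit without (x axis) and with (y axis) the length offsets, bars are 1 standard error, and the dashed line marks equal values. Values were lower with the offsets for 36 of the 37 subunits, for example Ndufb8 from 1.67 to 1.50 and Ndufa6 from 0.36 to -0.32.

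Levels per length were spread widely over the members, among them Ndufa4, which is now assigned to complex IV. In CPM per kilobase of transcript, the members ran from 1.59 to 224 in sh-NC, with a median of 35.6, and from 1.58 to 330.03 in sh-TonEBP, with a median of 65.0. Ndufa4 was highest in both groups. Ndufa7 came next, at 126 CPM per kilobase in sh-NC and 216 in sh-TonEBP. Other high values in sh-NC were 118 for Ndufa6 and 85.6 CPM per kilobase for Ndufv3. The lowest in sh-NC were Ndufb2 at 1.59, Ndufb9 at 5.55 and Ndufa11 at 5.85 CPM per kilobase. These 3 genes each overlap another annotated gene, Braf, Gm49356 and Vmac in that order, and how overlapping reads were counted is not given in the sources used here. Leaving them out gave 27 of 34 members called higher, against 26.3% of all genes. The median of the core subunits was 37.5 CPM per kilobase in sh-NC and 64.5 in sh-TonEBP, and that of the accessory subunits 32.9 and 68.8.

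The remaining parts of complex I did not follow the nuclear subunits as a whole. Of the 7 subunits encoded by mitochondrial DNA, which form the proton-pumping core of the membrane arm, 1 was called higher and 1 lower. Of all genes tested 26.3% were called higher and 26.2% lower. The median log2 fold change of the 7 subunits was -0.0086. The lower one was mt-Nd5, a pump subunit, with counts of 25991, 40933 and 26356 in sh-NC and 18757, 17311 and 20899 in sh-TonEBP. Its groups did not overlap, and the log2 fold change was -0.69 (SE 0.20, adjusted p = 0.01354). The higher one, mt-Nd3, rested on few reads, with counts of 29, 11 and 20 in sh-NC and 41, 49 and 25 in sh-TonEBP, which overlapped (log2 fold change 0.94, SE 0.37, adjusted p = 0.047). The abundant mt-Nd1 had counts of 22040, 23348 and 22913 in sh-NC and 21827, 23308 and 25952 in sh-TonEBP (log2 fold change 0.09, SE 0.14). The others had log2 fold changes of -0.39 for mt-Nd2, -0.10 for mt-Nd4, 0.12 for mt-Nd4l and -0.01 for mt-Nd6, and were not called. Of these, mt-Nd4l rested on few reads, with counts of 28, 11 and 31 in sh-NC and 12, 44 and 19 in sh-TonEBP. With the length offsets 0 were called higher and 3 lower (mt-Nd2, mt-Nd5 and mt-Nd6), against 26.2% and 25.6% of all genes.

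Of 18 assembly factors tested, which build complex I but are not part of it, 4 were called higher (22.2%) and 1 lower (5.56%). Of all genes tested 26.3% were called higher and 26.2% lower. The median log2 fold change of the assembly factors was 0.07. Ndufaf3 and Ndufaf4 bind each other during assembly of the Q module, and they moved in opposite directions. Ndufaf3 had counts of 53, 40 and 67 in sh-NC and 121, 146 and 69 in sh-TonEBP (log2 fold change 1.07, SE 0.26, adjusted p = 0.004929), and Ndufaf4 had counts of 509, 487 and 449 in sh-NC and 287, 326 and 327 in sh-TonEBP (log2 fold change -0.60, SE 0.14, adjusted p = 0.004044). Both kept their calls with the length offsets. The other 3 higher genes were Ndufaf2, Ndufaf8 and Dmac1, which were not called with the offsets. In that fit Ndufaf6 was newly called lower (-0.60, adjusted p = 0.03251). This gave 1 assembly factor higher and 2 lower, against 26.2% and 25.6% of all genes. Outside the name rule, Ndufab1, the acyl carrier protein that is built into complex I, rose from counts of 151, 138 and 178 to 200, 261 and 214 (log2 fold change 0.55, SE 0.17, adjusted p = 0.01577). Ndufa4l2, a relative of Ndufa4, had counts of 7, 19 and 16 in sh-NC and 31, 24 and 24 in sh-TonEBP and was not called (log2 fold change 0.92, adjusted p = 0.06465).

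The other respiratory complexes were higher as well. All 4 genes of complex II were called higher (median log2 fold change 0.45), 7 of 9 of complex III (0.71), 7 of 10 of complex IV (0.85) and 13 of 17 of complex V, the ATP synthase (0.61). For complexes II to V together this gave 31 of 40 higher, against 26.3% of all genes tested, and 0 lower, against 26.2%. Their median was 0.69. The 37 members, with Ndufa4 kept among them and not in the complex IV list, gave 29 higher with a median of 0.98. The difference of the medians, 0.29, was not tested, and it lay between 0.13 and 0.35 in the alternatives. Without the third sh-NC library, and also without both replicates numbered 2, 20 of the 40 genes were called higher, against 20.6% and 19.9% of all genes. With the replicate number as a block 19 were called higher, against 26.4% of all genes. With the length offsets 17 of the 40 genes (42.5%) and 22 of the 37 members (59.5%) were called higher, against 26.2% of all genes.

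**Figure D5:**
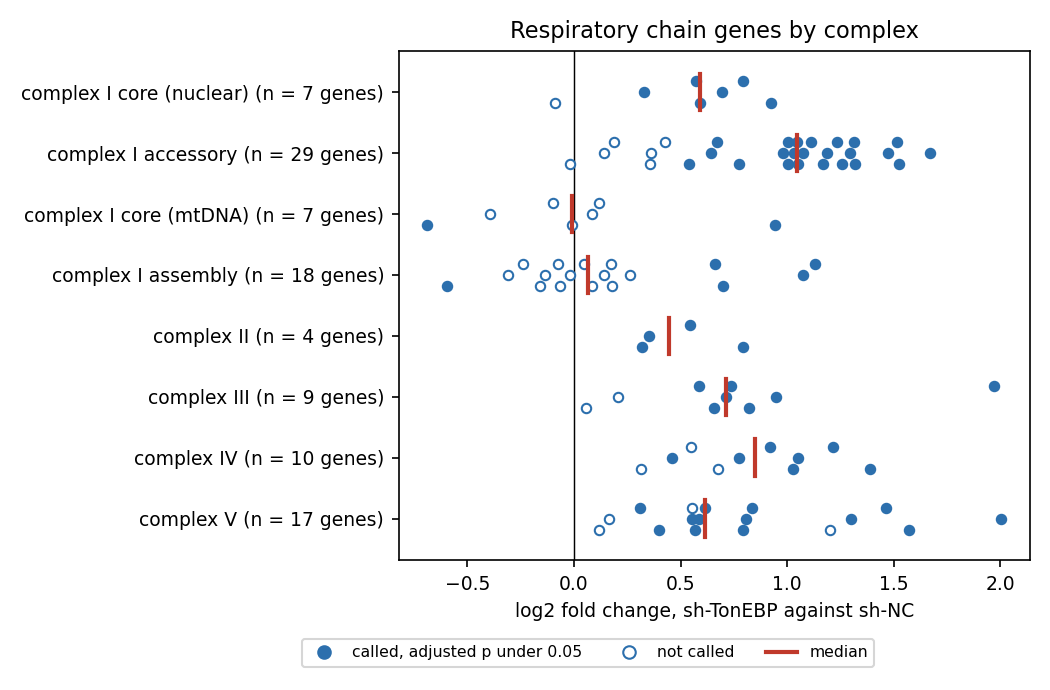
Log2 fold change (x axis, sh-TonEBP against sh-NC) of each tested gene of the respiratory chain, by complex, with filled points for called genes and red bars at the medians. Nuclear subunits of complexes I to V, apart from Ndufs1 and Ndufb2, lie above 0, with medians from 0.45 to 1.05, and the mitochondrially encoded subunits and the assembly factors are centred near 0.

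A list of genes tied to NADH oxidation outside complex I was split, but it also held enzymes that do not use NADH themselves. Of 9 tested, 4 were called higher and 2 lower, against 26.3% and 26.2% of all genes tested. The malate dehydrogenase of the cytosol, Mdh1, and the lactate dehydrogenases Ldha and Ldhb were among the higher, with log2 fold changes of 0.66, 0.54 and 0.56. The other tested enzymes of the list that use NADH, Mdh2 and Gpd1, were not called, at 0.22 and 0.19. Nnt, also listed, did not pass the filter on low counts. Gpd2 of the glycerol phosphate shuttle and the aminotransferase Got1 were the lower, at -0.50 and -0.42, and neither uses NADH itself. With the length offsets Gpd2 was no longer called (-0.27, adjusted p = 0.09939), and Got1 was (-0.48, adjusted p = 0.00259). Ldhb also lost its call in that fit (0.36, adjusted p = 0.1423). Among 10 genes often read as a measure of mitochondrial content, 2 were called higher (the prohibitins Phb and Phb2) and 3 lower (the chaperones Hspa9 and Hspd1 and the protease Lonp1), with a median of 0.0079. These counts are 20% and 30% of the list, near the shares of all genes tested.

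Promoters were examined because many members moved together. A RefSeq window of 250 bases before to 50 bases after the start (GRCm38.p6) was matched for 33 of the 37 members, and names without one include Ndufa2, Ndufb9 and Ndufs1. The median G and C content was 59.0% in the members' windows and 52.7% in all 32851 windows. Motifs were searched as exact letters on both strands, and a match is a description of the letters alone. The most frequent was that of SP1 (GGGCGG), in 14 members (42.4%) against 38.2% of all genes with a window. The core letters of the TonEBP motif (TGGAAA) were found in 6 members (18.2%) against 23.95% of all genes. The letters of NRF1 (GCGCATGCG) were in Ndufa8 and Ndufa11 (6.1% against 1.95%), of ERR (AAGGTCA) in Ndufb2, Ndufb4 and Ndufs5 (9.1% against 5.38%) and of GABPA (CCGGAAGT) in Ndufs3 (3.0% against 4.31%).

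The letters of YY1 (AAGATGGCG) were found in 5 members (15.2%) against 1.64% of all genes with a window. They are shown because in all 5 they began 23 to 36 bases into the transcript, counting the start as 1, and the ATG within them was the annotated start codon (GENCODE M21). The motif is in capitals, each sequence has 30 bases, and the sites are at chr3:51408914-51408943 (minus strand), chr6:126849096-126849125 (minus), chr10:80249463-80249492 (plus), chr13:73328433-73328462 (minus) and chr13:114388045-114388074 (minus) in the order printed.

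Ndufc1: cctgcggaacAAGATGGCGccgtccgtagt
Ndufa9: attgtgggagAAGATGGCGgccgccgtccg
Ndufs7: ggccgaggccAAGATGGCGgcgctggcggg
Ndufs6: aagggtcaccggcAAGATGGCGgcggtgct
Ndufs4: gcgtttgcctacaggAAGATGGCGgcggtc

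Of these 5 genes, Ndufc1, Ndufs6, Ndufs7 and Ndufa9 were called higher, with log2 fold changes of 1.17, 1.11, 0.69 and 0.54, and Ndufs4 was not, at 0.14.

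The 6 members with the TonEBP core letters are shown because TonEBP was the factor knocked down. The letters are in capitals, as TGGAAA or as its complement TTTCCA, each sequence has 30 bases, and the sites are at chr2:90904709-90904738 (minus strand), chr4:40279576-40279605 (minus), chr6:24527881-24527910 (minus), chr17:24724552-24724581 (minus), chr17:56717743-56717772 (plus) and chr19:3912797-3912826 (minus) in the order printed.

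Ndufs3: agtcactgcacaTTTCCActtccggtccgt
Ndufb6: gacttctcacacTTTCCAacaccgcccact
Ndufa5: cttccaccctcaTTTCCAtaacctgaggaa
Ndufb10: cagggcaaagcaTTTCCAgccatttggtga
Ndufa11: aaagttgcgcgcTGGAAAcctcgcgagagt
Ndufs8: gaaagggcactaTGGAAAaaggcgtgagaa

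All 6 were called higher, with log2 fold changes from 0.57 for Ndufs3 to 1.52 for Ndufa11, and so were 23 members without these letters or without a window. In Ndufs3 the TonEBP letters share 1 base with the GABPA letters, which begin at the start itself.

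Of 11 tested regulators of respiratory genes, 1 was called higher and 5 lower, against 26.3% and 26.2% of all genes tested. Gabpa, a DNA-binding subunit of the factor named above, had counts of 1628, 2002 and 1698 in sh-NC and 777, 1029 and 983 in sh-TonEBP (log2 fold change -0.91, SE 0.15, adjusted p = 0.0004204). Myc fell by a log2 fold of 0.94, and Esrra, which encodes an estrogen-related receptor, rose by 0.59. Yy1 and Nrf1 were not called, at 0.09 and 0.13, but with the length offsets Yy1 was called higher, at 0.34 (adjusted p = 0.01478). In that fit Tfam was newly called lower (-0.38, adjusted p = 0.02587), and Pprc1 lost its lower call (-0.13, adjusted p = 0.3558).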

How the data were processed

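The data are RNA-seq of BV2 cells, 3 sh-NC and 3 sh-TonEBP libraries. The authors deposited 1 table of raw counts per gene, made from poly(A) RNA; the build was GRCm39 and the tools were HISAT2 2.0.5, HTSeq 0.9.1, cutadapt 1.15 and DESeq 1.30.0 per the submitters' processing notes. For the annotation, the strand setting and multiply mapped reads, the sources used here give nothing. The knockdown columns were identified by elimination, with Nfat5 as a check.

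Symbols were found for 21795 of 21899 identifiers. edgeR 4.0.16 (R 4.3.3) tested 11943 genes on these counts with filterByExpr, TMM, the robust quasi-likelihood test without covariates, and Benjamini-Hochberg adjustment over all genes tested. The authors' methods used DESeq2 on raw counts; DESeq2 1.42.0 was an alternative here. Standard errors were derived from each F statistic. Replicate pairs differed by a chi-square per degree of freedom of 5.33 or more, so no library was counted as a repeat. The scripts were tested on simulated data. Transcript lengths (median protein-coding transcript) and shared sequence came from GENCODE M21 on GRCm38, so no gene coordinates are given; promoter windows are RefSeq GRCm38.p6. Length offsets were loess fits (span 0.3) per library.

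Members and lists were chosen with earlier results of these data known. All members may be named. Values in every library are given for the core subunits (1 member is not reported here), the 6 accessory subunits with the largest rise, the 4 others with the smallest adjusted p, the 3 lowest members, Ndufa4 and part of the complex I genes outside the name rule. Other lists are given by counts, medians and at most the 3 genes with the smallest p, and any further gene of theirs was named after its values were seen. Alternatives were other scaling and filters, DESeq2, a replicate block, leaving out libraries, stricter thresholds and length corrections.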

Additional observations from a re-analysis of the deposited data

How the results depend on the processing

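RLE factors, library totals alone, a mean of at least 1 CPM and DESeq2 gave 29 or 30 members called higher and 0 lower. In the same fits 25.8% to 26.8% of all genes were called higher and 26.2% to 27% lower. Without a filter on low counts 21 members and 15 accessory subunits were called, against 19.9% of all genes, with a members' median of 0.998. The calls lost there were those of Ndufa1, Ndufa2, Ndufa3, Ndufa13, Ndufb1, Ndufb3, Ndufb9 and Ndufs6. At an adjusted p under 0.01 the counts were 19 and 15, against 18.1% of all genes. At a fold above 2 they were 18 members and 0 core subunits, against 6.38% of all genes. Length offsets gave 3 core subunits higher and 1 member lower, against 26.2% higher and 25.6% lower of all genes. The medians of members, core and accessory subunits were 0.59, 0.34 and 0.63 with length offsets, 0.55, 0.32 and 0.60 with the length trend taken from the fold changes, and 0.58, 0.47 and 0.59 without both replicates 2, where core minus accessory was -0.12. The causes of these moves beyond what each setting takes out were not tested.

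Leaving out 1 library at a time gave 23 to 29 members called higher, with 5 to 6 core and 18 to 23 accessory subunits. In the same fits 20.6% to 25.4% of all genes were called higher, and the lowest share went with the fewest members. The medians were 0.74 to 1.13 for members and 0.50 to 0.78 for core subunits, and the core minus accessory difference was -0.56 to -0.25.

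The replicate numbers did not pair the libraries. The correlations of same-numbered libraries were 0.195, 0.0501 and -0.108, and the third sh-TonEBP library went best with the second sh-NC library (0.251). With the replicate number as a block 19 members and 13 accessory subunits were called higher, against 26.4% of all genes, and the members' median was 0.97. The calls lost with the block were those of Ndufa1, Ndufa2, Ndufa3, Ndufa5, Ndufa13, Ndufb1, Ndufb3, Ndufb6, Ndufs5 and Ndufs6.

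Among single genes, the direction reversed with length offsets for Ndufa4 (-0.063), Ndufc2 (-0.10), Ndufb5 (-0.18), Ndufa6 (-0.32), mt-Nd1 (-0.24) and mt-Nd4l (-0.66). Without both replicates 2 it reversed for Ndufa6 (-0.015), Ndufs4 (-0.11), mt-Nd4 (0.14) and mt-Nd4l (-0.84). Leaving out 1 library at a time gave ranges that include both directions for Ndufs4 (-0.039 to 0.33), Ndufb2 (-0.24 to 0.26), mt-Nd1 (-0.054 to 0.18), mt-Nd4 (-0.35 to 0.031), mt-Nd4l (-0.52 to 0.47) and mt-Nd6 (-0.042 to 0.055), and no filter reversed mt-Nd6 (0.0086). Ndufa11, Ndufb2 and Ndufb9 had under 100 counts in every sh-NC library, with standard errors of 0.32, 0.30 and 0.39; the widest of the members was that of Ndufa2 (0.41).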
